A study of Mus musculus with 27 samples.

Results

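The genes described here are named for the proteins of the cytosolic ribosome, and 1 of them, Rps4l, is annotated as a transcribed processed pseudogene. They were the rows of the deposited count table with a mouse ribosomal protein symbol (Rpl or Rps followed by a number, with an optional a, l, x or y, together with Rplp0, Rplp1, Rplp2 and Rpsa) and a mean of at least 1 CPM (a gene's count scaled to a library of 1000000 counts) over all 27 libraries. Of the 29872 genes in the table, 83 had such a symbol and 79 reached that mean. By symbol, 47 of these belong to the large subunit and 32 to the small subunit. The lowest member was Rpl39l, at a mean of 1.47 CPM. The 4 genes below the limit were Rpl6l (0.886 CPM), Rpl32l (0.415 CPM), Rpl3l (0.114 CPM) and Rpl10l (0.0033 CPM). All 79 members passed the filter on low counts, so each was tested in every comparison.

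Ribosomal proteins assemble with ribosomal RNA into a large and a small subunit, and each protein is needed in about equal number. Most vertebrate messages for these proteins begin with a pyrimidine tract at the 5′ end, the TOP motif, through which mTORC1 signalling and the RNA-binding protein LARP1 control their translation as a set. Because this control acts largely on translation, the amount of a ribosomal protein message and the rate at which its protein is made can change separately, and sequencing of total poly(A) RNA measures only the first.

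RNA was sequenced from macrophages that had been differentiated over 5 days in 20% serum and 10% L-cell conditioned medium. Their marrow came from male mice aged 8 to 10 weeks. Wild-type cells carried LysM-Cre+/+ and GRIP1wt/wt on C57BL/6 by their genotype label, while their titles and the series text call them BL6. Knockout cells were LysM-Cre+/+; GRIP1fl/fl, in which Cre made from the Lyz2 locus acts in myeloid cells on floxed Ncoa2, the gene of the glucocorticoid receptor coregulator GRIP1. Cells of each genotype were given vehicle, 10 ng/ml interleukin 4 (IL4, the cytokine of alternative macrophage activation), 500 nM corticosterone (the main glucocorticoid of mice) or 100 nM dexamethasone (a synthetic glucocorticoid) for 24 h. There were 3 libraries in each wild-type group, 3 in knockout cells with IL4 and 4 in the other knockout groups.

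Libraries held 20162729 to 48023102 counts. Ncoa2 was at 55.7 to 93.4 CPM in the 12 wild-type libraries and at 16.1 to 26.0 CPM in the 15 knockout libraries, with no overlap. The 10 macrophage markers summed to 6247 to 7706 CPM and none was at 0. Neutrophil and stromal markers separated the genotypes. The 8 neutrophil genes summed to 49.1 to 348 CPM in wild-type and 6.18 to 17.0 CPM in knockout libraries. The 6 stromal genes summed to 151 to 788 CPM and 10.6 to 42.8 CPM. The sums of B cell, T and NK cell, erythroid, mast cell and dendritic cell markers overlapped between the genotypes. Libraries are numbered up to 3 in each wild-type group and up to 4 in each knockout group, where IL4 has 1, 2 and 4. The labels do not say whether a number marks 1 animal or culture, so p-values measure the spread between these libraries, which may in part be technical. In bulk RNA, fewer cells of a type and less RNA per cell cannot be told apart.

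The annotated start sites of these genes often held a pyrimidine tract. RefSeq promoters (GRCm38.p6) were found for 58 of the 79 members, and within 50 bases of the annotated start a sense-strand run of at least 8 C or T bases was present in 82.8% of them (48 of 58), against 35.6% of 26967 other genes. The stretches below are 30 bases long, read 5′ to 3′ on the gene's strand, with the longest run in capitals. They are shown for Rpl13a, Rps18, Rps6, Rps27 and Rps27l, which appear in the IL4 and glucocorticoid comparisons, for Rpl7a, whose run of 21 bases was the longest of the 58, and for Rpl39l and Rpl24, which were among the lowest in level.
Rpl13a (chr7:45128722-45128751, minus strand): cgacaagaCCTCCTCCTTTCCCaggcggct
Rps18 (chr17:33955647-33955676, minus strand): tcacttccgCTCTCTCTTCCacaggaggcc
Rps6 (chr4:86857349-86857378, minus strand): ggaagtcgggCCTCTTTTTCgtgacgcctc
Rps27 (chr3:90213631-90213660, minus strand): tccgctttcgCTCCTTTCCggcggtgacga
Rps27l (chr9:66946054-66946083, plus strand): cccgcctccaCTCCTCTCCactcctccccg
Rpl7a (chr2:26910789-26910818, plus strand): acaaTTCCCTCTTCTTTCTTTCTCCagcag
Rpl39l (chr16:10170192-10170221, plus strand): acacccactgCCTCTCCCTagctcccaggc
Rpl24 (chr16:55966227-55966256, plus strand): acctcaaacccaCTCCCCgccaatgctgta
The run was 6 bases in Rpl24 and 14 bases in Rpl13a. The annotated start and the tract did not always coincide, and a run of these letters is a description of the sequence, not a mapped 5′ end.

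Other short motifs were searched in the 300 bases from 250 before to 50 after the start, on both strands. CTTCCG, the core bound by ETS-family factors, was present in 70.7% of the members (41 of 58) and 17.1% of other genes. It can overlap the end of a pyrimidine run. A core bound by YY1, AAGATGG, was in 13.8% of members and 6.46% of others. The TATA box, TATAAA, was in 8.62% of members and 14.2% of others, and these 3 motifs were counted independently of each other. A match in this window shows the letters only.

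Levels per kb of transcript were compared among members, since CPM grows with length. The median member stood at 273 CPM per kb, with a lower quartile of 186 and an upper quartile of 399. Rplp1, an acidic protein of the ribosomal stalk that recruits elongation factors, was highest at 851 CPM per kb. Rpl8 (691), Rpl32 (637) and Rpl41 (627), proteins of the large subunit, followed. The stalk proteins Rplp0 and Rplp2, partners of Rplp1, were at 565 and 544 CPM per kb, and Rpsa, the small subunit protein also known as the laminin receptor, was at 251.

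The 4 lowest members stood well under that band. Rpl39l, a paralog of Rpl39 known from the testis, was at 2.66 CPM per kb, Rpl24 at 10.7, Rps4l at 11.4 and Rps10 at 14.3. Rps4l is annotated as a transcribed processed pseudogene (GENCODE vM21, GRCm38, chr6:148354656-148355598, plus strand). Rpl24 and Rps10, proteins of the large and small subunit, have exons that overlap other annotated genes on the same strand: Gm28037 covers 47.0% of the exon bases of Rpl24 (chr16:55966275-55971435, plus strand), and Gm15420 and RPS10-NUDT3 cover 20.6% of those of Rps10 (chr17:27630418-27636669, minus strand). The 5th lowest, Rpl13a at 38.9 CPM per kb, is overlapped over 35.4% of its exon bases. The sources used here do not say how reads in such overlaps were counted, and the part of this in these levels was not tested.

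Ribosomal protein genes have many processed copies in the genome, and a read that matches several copies can be lost or split in counting. Of all 50-base windows of a member's transcripts, a median of 60.0% also occurred in a transcript of another gene, from 0 in Rpl39l to 98.65% in Rps27. The level did not fall with this share: the median was 186 CPM per kb in the 11 members with up to 25% shared windows, 271 in 21 with 25 to 50%, 274 in 22 with 50 to 75% and 284 in 25 above that. Levels of members with a high share are uncertain for this reason.

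**Figure D1:**
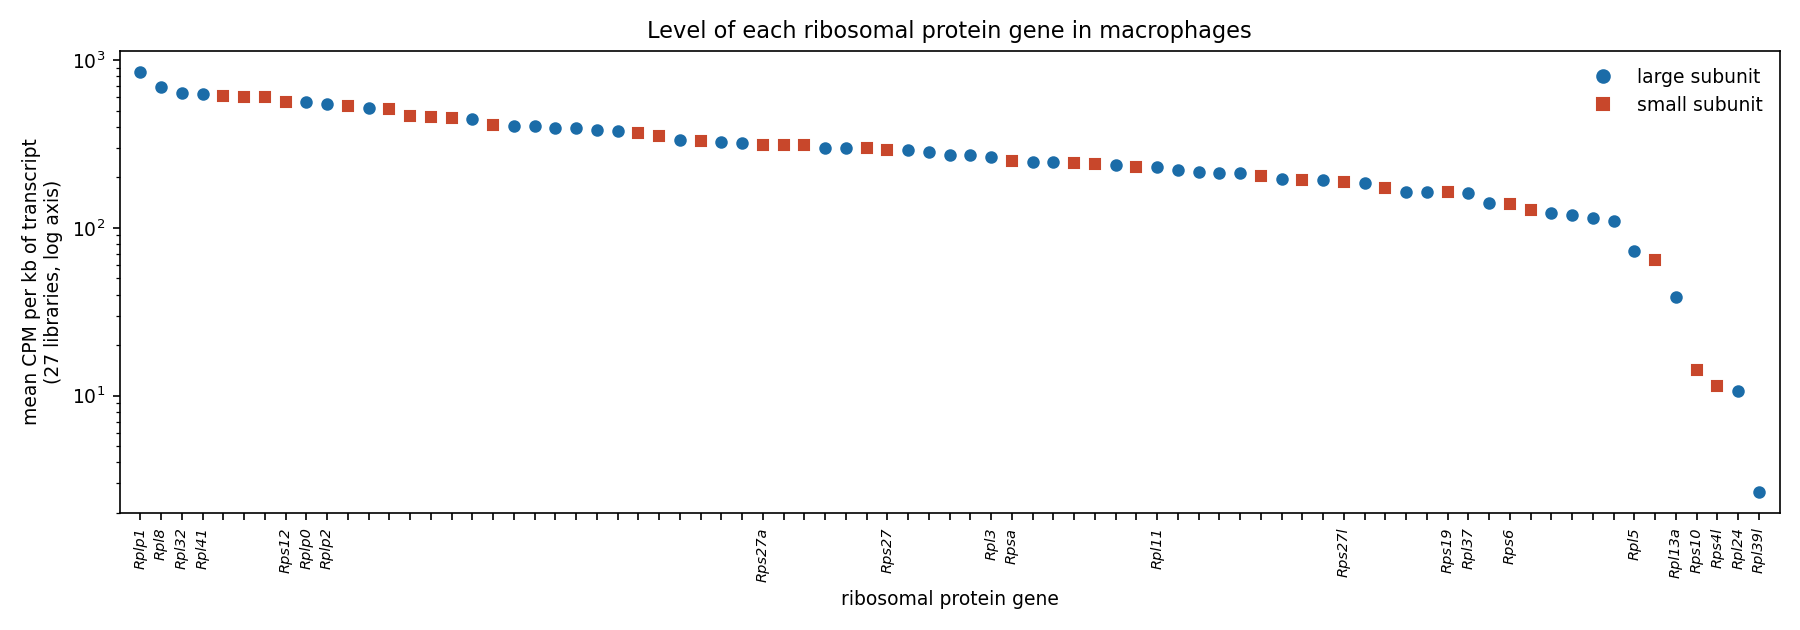
Mean CPM per kb of transcript over 27 libraries (log axis) for each of the 79 genes, ordered by level, with some genes labelled. Rplp1 was highest at 851 CPM per kb, and Rpl24, Rps4l, Rps10 and Rpl39l lay under 20.

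Together the members took 1.54% to 2.13% of the counts of a library. In wild-type cells the share was 1.85% ± 0.147 (SD, n = 3) under vehicle, 1.92% ± 0.0495 under IL4, 1.79% ± 0.0882 under corticosterone and 1.83% ± 0.140 under dexamethasone (n = 3 each). In knockout cells the 3 groups of 4 libraries had shares of 1.84% ± 0.196 under vehicle, 1.75% ± 0.115 under corticosterone and 1.74% ± 0.0759 under dexamethasone (SD, n = 4), and the IL4 group 1.75% ± 0.213 (n = 3). In each comparison of a treatment with vehicle, and of the genotypes within a treatment, the ranges overlapped and the means differed by less than the larger SD.

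Between the 8 groups the genes stayed close to their own mean. For the 74 members of at least 50 CPM, the highest group mean was a median of 1.15-fold above the lowest, and at most 1.41-fold (Rplp1), while the median was 1.28-fold in the 4819 other genes of at least 50 CPM. Among the narrowest were Rpl37 (1.07-fold) and Rps12 (1.08-fold). Rps12 ran from 222 to 321 CPM over the 27 libraries, with a median of 257, and its highest and lowest libraries were both knockout cells with vehicle. The widest were Rpl39l (2.67-fold), Rplp1 (1.41-fold) and Rps4l (1.40-fold). Rplp0, which is often used as a reference gene in quantitative PCR, ran from 618 to 884 CPM with a median of 755, and its group means differed by 1.09-fold.

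The members also varied from library to library. After each gene was set to its own mean, the members moved together: their median log2 deviation was 0.27 in knockout vehicle library 2, where 77 of 79 lay above their mean, and −0.16 in knockout IL4 library 4. In knockout cells, library 2 was the highest of libraries 1, 2 and 4 in all 4 conditions for 59 of the 79 members. The share of all genes with the same library number highest in all 4 conditions was 14.6% in knockout cells. In wild-type cells, library 2 was the lowest of the 3 in all 4 conditions for 49 members, and the share of all genes with 1 number lowest throughout was 26.3%. These counts were made after the values were seen. Across the 27 libraries, the deviations of a pair of members from their group means had a median correlation of 0.798, against 0.011 for pairs of the 4819 other genes, a description over libraries that share depth and RNA handling.

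Other short transcripts shifted with the members in the libraries of the largest shifts, but not in every library. The 186 other genes with under 1200 exon bases and at least 20 CPM had a median deviation of 0.24 in knockout vehicle library 2 and −0.16 in knockout IL4 library 4, while genes over 6000 bases deviated by −0.10 and 0.11. In wild-type vehicle library 2 the members were at −0.14 and the short genes at −0.13. In knockout vehicle library 3 the members were at −0.13 and the short genes at 0.04, and in wild-type dexamethasone library 1 at 0.13 and −0.02. The part of transcript length, RNA quality or the source of the cells in these shifts was not tested.

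**Figure D2:**
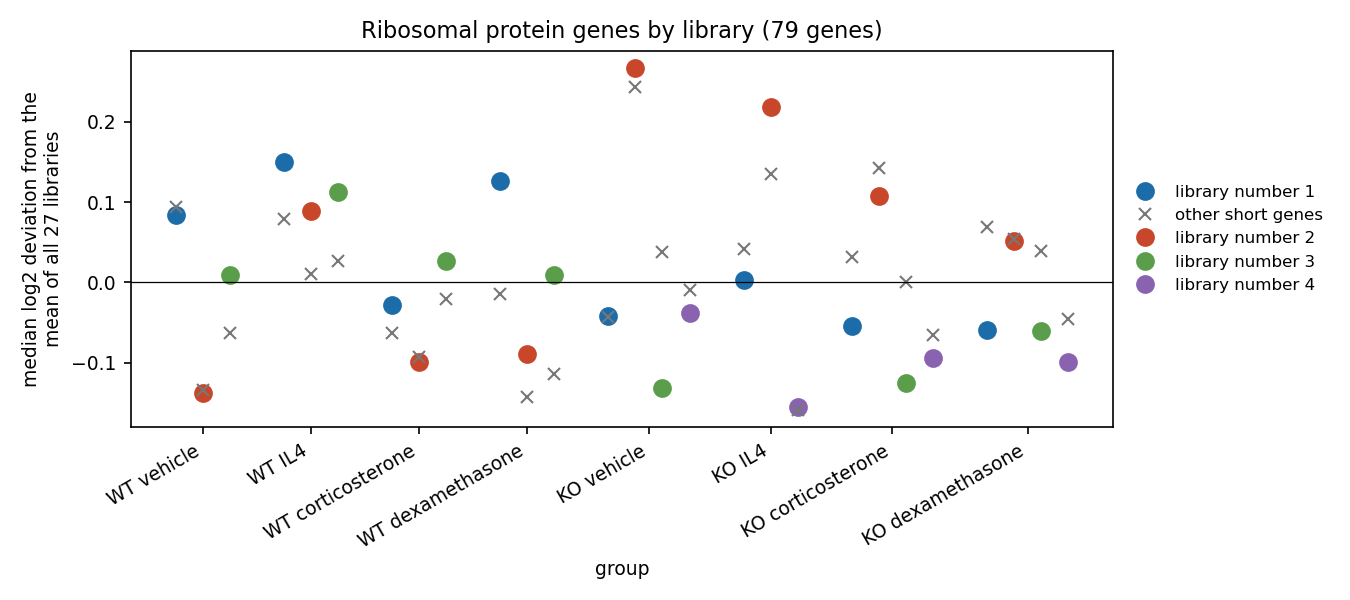
Median log2 deviation of the 79 genes from their mean over all libraries (circles, coloured by library number) and of 186 other short genes (crosses), by group. Library 2 is the highest circle in each knockout group and the lowest in each wild-type group.

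The 2 paralogs of low level varied with the library number and not with the rest of the set. Rpl39l (chr16:10170226-10174911, plus strand) was at 4.45, 3.52, 3.37 and 3.48 CPM in wild-type library 1 (vehicle, IL4, corticosterone, dexamethasone) and at 0.827 to 1.47 CPM in wild-type libraries 2 and 3. In knockout library 2 it was at 0.246, 0.218, 0.163 and 0.169 CPM in the same order, from 4 to 6 counts a library, and in the other knockout libraries at 0.927 to 2.04 CPM. In each of the 4 conditions wild-type library 1 was thus the highest and knockout library 2 the lowest of all libraries. Rps4l was at 13.4, 14.3, 13.5 and 13.8 CPM in knockout library 1 and at 6.92 to 8.85 CPM in the other knockout libraries. In wild-type cells it was at 9.08 to 11.0 CPM in library 1 and 6.40 to 8.57 CPM in libraries 2 and 3. Rps4l was the highest in library 1 of both genotypes, although a number is not shown to link the genotypes. Their median correlation with the other members was −0.27 for Rpl39l and 0.14 for Rps4l, and Rps15a was the most like the rest at 0.897.

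**Figure D3:**
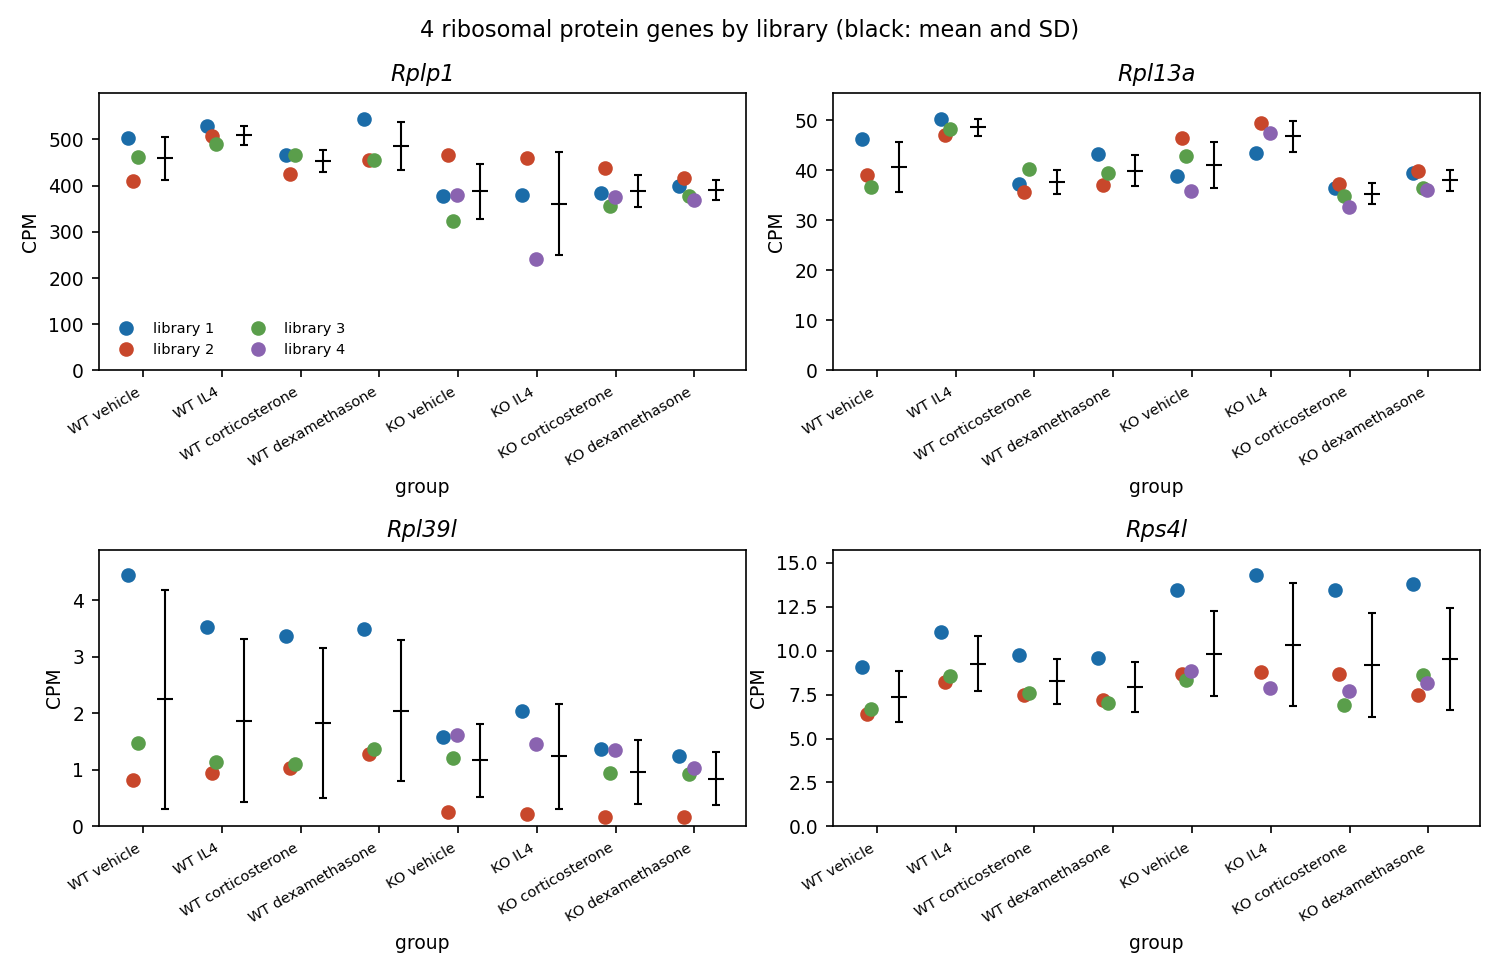
CPM of Rplp1, Rpl13a, Rpl39l and Rps4l in each library (points, coloured by library number) with the mean and SD of each group in black. Rpl39l was highest in wild-type library 1 and lowest in knockout library 2 in all 4 conditions.

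With IL4 the ribosomal protein genes of wild-type cells leaned in 1 direction by small amounts. The fitted log2 fold change was above 0 for 77 of 79 members, with a median of 0.13 (1.09-fold) against −0.01 for all 14589 genes tested, and the large and small subunits had the same median of 0.13. With edgeR's quasi-likelihood test over all genes, 1 member was called at an adjusted p under 0.05, while 30.1% of all genes were called. DESeq2 also called 1, and 9 members had an unadjusted p under 0.05 (38.9% of all genes). For 76 of 79 members the 95% interval of the change lay within 1.5-fold in either direction.

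The called member was Rpl13a, a large subunit protein that is also released from the ribosome in the interferon-gamma response of monocytes. Vehicle libraries 1 to 3 had Rpl13a at 46.3, 39.1 and 36.7 CPM, and IL4 libraries 1 to 3 had 50.3, 47.1 and 48.2 CPM. Each IL4 library lay above each vehicle library, and Rpl13a rose by 0.25 ± 0.09 (log2, SE; edgeR adjusted p = 0.0364). Leaving out 1 library at a time gave 0.18 to 0.36, and the call was lost without vehicle library 2 or 3 or IL4 library 1 or 3, to an adjusted p of at most 0.199 (without vehicle library 3).

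The other named members did not pass the test, with fitted changes above 0 except for Rpl39l (−0.26 ± 0.76). Rps27l, a paralog of Rps27 induced by p53, was at 115, 93.5 and 104 CPM under vehicle and at 138, 123 and 125 CPM under IL4 (0.30 ± 0.14, edgeR adjusted p = 0.117). These groups did not overlap either. Rps6, the small subunit protein phosphorylated by S6 kinase, was at 127, 114 and 123 CPM and at 133, 132 and 137 CPM (0.14 ± 0.08, edgeR adjusted p = 0.201). Rpl5 and Rpl11, which with 5S RNA bind MDM2, had fitted changes of 0.11 ± 0.09 and 0.11 ± 0.11. Rps19, mutated in Diamond-Blackfan anaemia, had 0.19 ± 0.12, Rps27a, made as a fusion with ubiquitin, 0.13 ± 0.11, and Rpl3, near the peptidyl transferase centre, 0.05 ± 0.09.

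The members were counted again by direction, beside all genes. The IL4 libraries lay above all vehicle libraries for 36 of 79 members (22.2% of all genes did so) and below them for 0 members (22% of all genes). Among same-numbered libraries, 58 members were higher with IL4 in all 3 pairs (32.9% of all genes) and 0 were lower in all 3 (35% of all genes). The libraries of a number shared their deviations in wild-type cells, and in an edgeR fit with the number as a block 24 members rose and 0 fell (19.6% of all genes rose and 20.4% fell). Of these 14 belonged to the large and 10 to the small subunit. They included Rps4l (0.33 ± 0.09, adjusted p = 0.00361), Rps27l (0.31 ± 0.05, adjusted p = 9.61e-05), Rps18 (0.26 ± 0.07, adjusted p = 0.00273) and Rpl13a (0.26 ± 0.07, adjusted p = 0.00722), and the smallest was Rpl7a (0.12 ± 0.05, adjusted p = 0.0396). The size rested in part on vehicle libraries 1 and 2: the median over members was 0.07 without library 2 and 0.19 without library 1. In a fit of these 6 libraries alone 9 members were called, all higher (29.6% of all genes were called). The 6 T and NK cell markers summed to 77.9 to 111 CPM with vehicle and 183 to 224 CPM with IL4, and their part in these values was not tested. Only 1 of the 6 had a mean of at least 10 CPM, so the sum rests largely on 1 gene and does not measure the number of these cells.

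**Figure D4:**
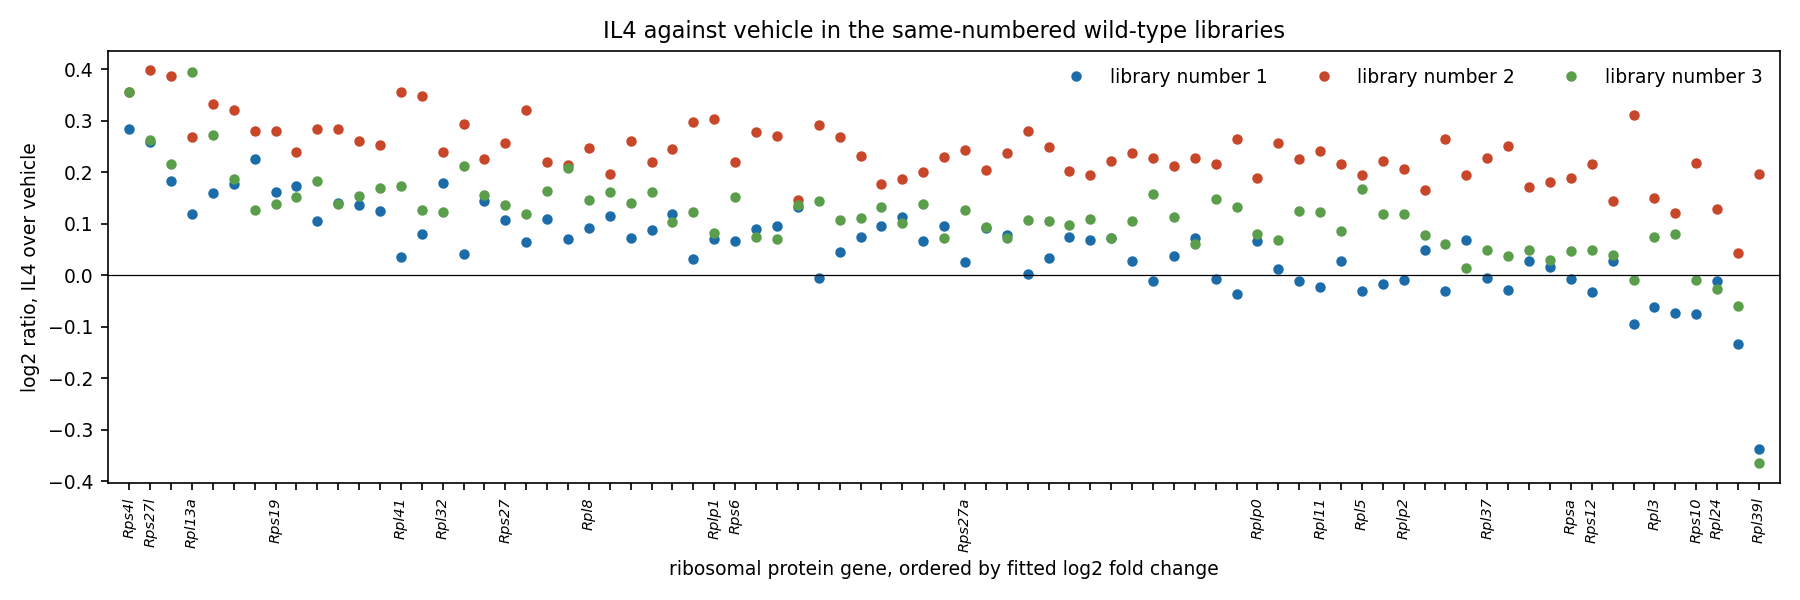
Log2 ratio of CPM with IL4 over vehicle in the same-numbered wild-type libraries, for the 79 genes ordered by fitted change, with some genes labelled. Library pair 2 has the highest ratio for most genes, and 58 genes lie above 0 in all 3 pairs.

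In knockout cells IL4 gave no such common direction. The fitted change was above 0 for 47 members (50.8% of all genes) and below 0 for 32, with a median of 0.02. No member was called by edgeR or DESeq2 (26.5% of all genes by edgeR), and 3 had an unadjusted p under 0.05 (37.4% of all genes), Rpl13a, Rps26 and Rpl24. In knockout vehicle libraries 1 to 4 Rpl13a was at 38.8, 46.5, 43.0 and 35.9 CPM, and in IL4 libraries 1, 2 and 4 at 43.5, 49.5 and 47.4 CPM. These groups overlapped, and its change was 0.19 ± 0.09 (edgeR adjusted p = 0.107). With the number as a block, edgeR called 2 members (35.8% of all genes). Rpl13a rose (0.19 ± 0.07, adjusted p = 0.0377) and Rpl24 fell (−0.41 ± 0.13, adjusted p = 0.0212). Correlations of same-numbered libraries ran from 0.096 to 0.36 here, the lowest just under the limit of 0.1 used for pairing. Knockout library 2 with vehicle and library 4 with IL4, the libraries with the largest shifts of the whole set, entered this comparison: the median over members was 0.11 without vehicle library 2, where 7 members were called, all higher (27.2% of all genes were called), and −0.10 without IL4 library 2, where 3 were called, all lower (26.2% of all genes).

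The difference between the genotypes in the IL4 change was tested directly. The fitted interaction was the knockout change minus the wild-type change. For 72 of 79 members it was below 0, with a median of −0.13 (52.3% of all genes were above 0). None was called (0.0274% of all genes), none had an unadjusted p under 0.05 (9.07% of all genes), and DESeq2 called 0. The 95% interval of the difference lay within 1.5-fold for 64 members and within 2-fold for 78. Rpl13a had an interaction of −0.07 ± 0.12 and Rplp1 of −0.25 ± 0.21. The median was −0.03 without knockout IL4 library 4 and −0.25 without knockout IL4 library 2.

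Glucocorticoids left the ribosomal protein genes of wild-type cells near their vehicle level. The fitted change was below 0 for 57 of 79 members with corticosterone and above 0 for 61 with dexamethasone. Of all genes 52.1% and 51.9% had a change above 0. Leaving out 1 library at a time gave medians of −0.08 to 0.03 with corticosterone and −0.04 to 0.08 with dexamethasone. With corticosterone the median change was −0.02, no member was called by edgeR or DESeq2 (5.94% of all genes by edgeR) and none had an unadjusted p under 0.05 (16.1% of all genes). With dexamethasone the median was 0.03, and again edgeR and DESeq2 called 0 members (13.7% of all genes by edgeR). The 95% interval lay within 1.5-fold for 77 members in each comparison. The 1 member with an unadjusted p under 0.05 (24.8% of all genes) was Rps27, a zinc finger protein of the small subunit, at 99.2, 86.7 and 96.6 CPM under vehicle and 112, 99.0 and 111 CPM under dexamethasone. It was higher in each same-numbered pair (0.19 ± 0.08, edgeR adjusted p = 0.135), and in the fit with the number as a block Rps27 was the 1 member that rose (adjusted p = 0.0143, 22.1% of all genes called). All treatments of a genotype were compared with the same vehicle libraries.

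In knockout cells with a glucocorticoid most members lay slightly under vehicle. With corticosterone 70 of 79 members had a fitted change below 0, with a median of −0.06, and with dexamethasone 67 did, with a median of −0.07. Of all genes 49.7% and 49.6% had a change above 0. No member was called by edgeR in either comparison (12.1% and 18.4% of all genes), 2 had an unadjusted p under 0.05 in each (23.4% and 29.5%), and DESeq2 called 1 (Rpl13a, with corticosterone). Rpl13a was at 36.5, 37.3, 35.0 and 32.6 CPM with corticosterone, against the vehicle values above (−0.22 ± 0.08, edgeR adjusted p = 0.0807). These groups overlapped. With corticosterone, where same-numbered knockout libraries shared their deviations, the block fit called 3 members, all lower: Rpl13a (−0.21 ± 0.06, adjusted p = 0.0201), Rpl12 (−0.17 ± 0.05, adjusted p = 0.0248) and Rps6 (−0.14 ± 0.05, adjusted p = 0.0335), with 20.4% of all genes called.

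These medians rested on 1 library. Without knockout vehicle library 2, in which the members were high as a set, the median was 0.01 with corticosterone and 0.01 with dexamethasone. The interaction was below 0 for 68 members with corticosterone (median −0.04) and 75 with dexamethasone (median −0.09). Of all genes 47.3% and 46.4% had an interaction above 0. No member was called for either by edgeR or DESeq2 (0.0206% and 0.185% of all genes by edgeR), and none had an unadjusted p under 0.05 (6.35% and 6.03%). Without the same library the medians were 0.05 and 0.00. Arg1, which stood at 491 to 947 CPM in the IL4 libraries, was at 117 CPM in knockout vehicle library 2 and 78.4 CPM in library 3. Knockout vehicle libraries 1 and 4 held it at 2.63 and 4.27 CPM. It was also raised in wild-type dexamethasone library 1 (67.1 CPM) and knockout dexamethasone library 2 (68.0 CPM). The part of this in these medians was not tested.

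**Figure D5:**
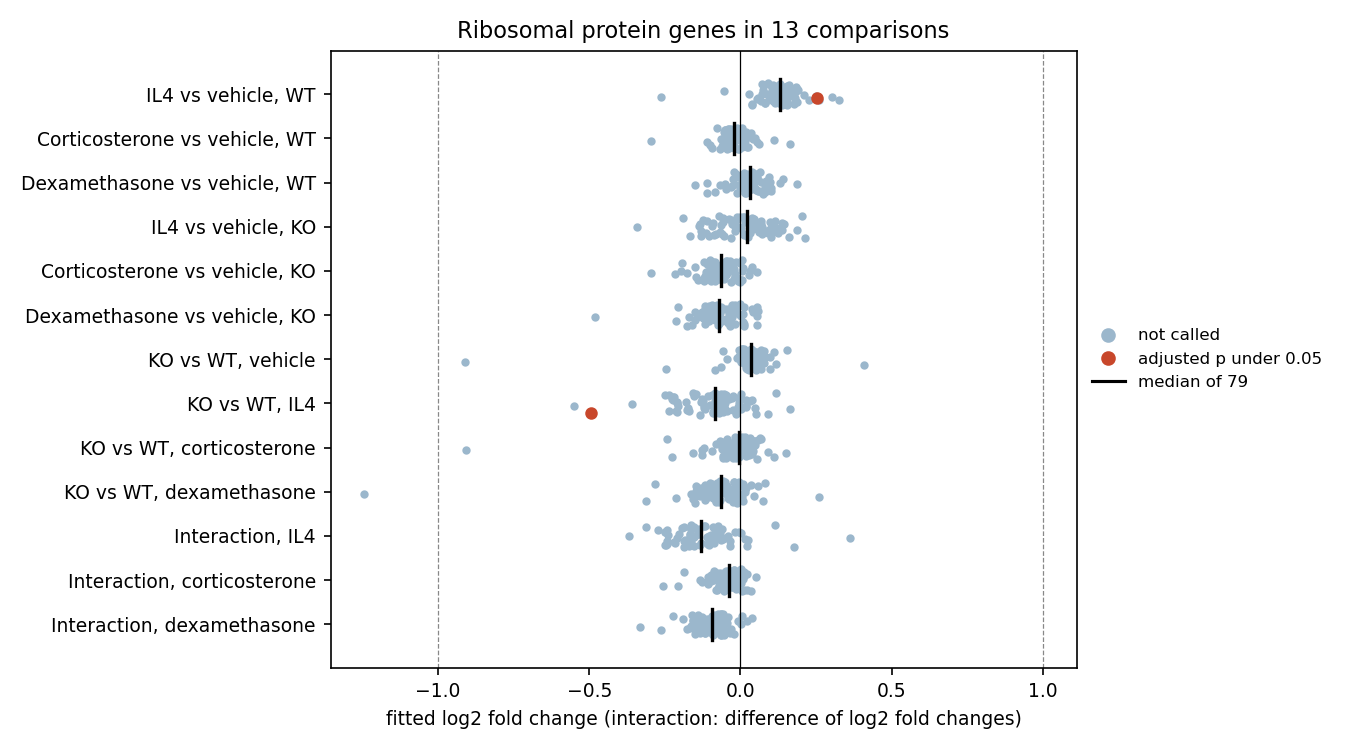
Fitted log2 fold change of the 79 genes in the 13 comparisons (points), with the median as a black bar and dashed lines at 2-fold. Red marks the 2 calls, Rpl13a with IL4 in wild-type cells and Rplp1 in knockout against wild-type cells with IL4.

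Loss of GRIP1 was compared within each treatment. The median difference of knockout from wild type was 0.03 under vehicle, −0.08 under IL4, −0.01 under corticosterone and −0.06 under dexamethasone. Leaving out 1 library turned the sign of each: to −0.07 without knockout library 2 or −0.02 without wild-type library 2 under vehicle, to 0.003 without knockout library 4 under IL4, to between 0.005 and 0.03 without wild-type library 3 or knockout library 3 or 4 under corticosterone, and to 0.006 without wild-type library 1 under dexamethasone. In the same order edgeR called 0, 1, 0 and 0 members (18.8%, 12.4%, 14.4% and 17.2% of all genes), and DESeq2 called as many. An unadjusted p under 0.05 was found for 0, 2, 0 and 2 members (29.3%, 27.4%, 25.7% and 28.6% of all genes). In each of these comparisons the 95% interval lay within 2-fold for 78 members, with Rpl39l as the exception, and within 1.5-fold for 74 to 77.

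The called member was Rplp1 (chr9:61913284-61914542, minus strand), the stalk protein that was also the highest in level. Wild-type cells held Rplp1 at 504, 411 and 463 CPM under vehicle, 529, 507 and 490 under IL4, 467, 426 and 467 under corticosterone and 545, 455 and 456 under dexamethasone (libraries 1 to 3). Knockout cells held it at 378, 467, 324 and 380 CPM under vehicle, 381, 460 and 241 under IL4, 385, 437, 355 and 375 under corticosterone and 400, 416, 377 and 370 under dexamethasone (in order of number). The genotypes did not overlap with IL4 or dexamethasone, and with vehicle and corticosterone only knockout library 2 reached into the wild-type range. Rplp1 was the 1 member wholly lower in knockout cells with IL4 (13.1% of all genes were) and 1 of 4 with dexamethasone (14.6%). With IL4 the fitted difference of Rplp1 was −0.50 ± 0.15 (log2, edgeR adjusted p = 0.0335). It was −0.27 (adjusted p = 0.205) without knockout library 4 and −0.74 without knockout library 2, and the call was also lost without wild-type library 1 (adjusted p = 0.116) or 2 (adjusted p = 0.0659) and in a fit of these 6 libraries alone (adjusted p = 0.248). Knockout IL4 library 4, the lowest in Rplp1, also had the highest sum of the T and NK cell markers of all libraries (339 CPM, against at most 224 CPM in wild type), and the part of this in the difference was not tested. That sum rests largely on 1 of its 6 genes and does not measure the number of these cells. The differences under vehicle, corticosterone and dexamethasone were −0.25 ± 0.14, −0.23 ± 0.14 and −0.31 ± 0.14 (edgeR adjusted p = 0.267, 0.346 and 0.139).

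A contrast of the genotypes averaged over the 4 conditions was added after these values were seen. Rplp1 was at 477 ± 39.8 CPM in wild-type (SD, n = 12) and 383 ± 54.9 CPM in knockout libraries (n = 15), a fitted difference of −0.32 ± 0.07 on the log2 scale (edgeR adjusted p = 0.000909). It was the 1 member called by edgeR, among 40.9% of all genes, and DESeq2 called 4 members. Leaving out each of the 27 libraries in turn gave −0.38 to −0.26 for Rplp1, with an adjusted p of at most 0.0024, and 1 to 7 members called, with 7 lower without knockout vehicle library 2 or knockout IL4 library 2 (40.1% of all genes called in each). Same-numbered wild-type libraries shared their deviations across treatments, and knockout library 2 was the highest knockout library in Rplp1 in all 4 conditions. The 27 libraries are thus not independent, and these p-values may be too small. Leaving out 1 library at a time does not test this. The other stalk proteins were not called, with averaged differences of −0.03 ± 0.05 for Rplp0 and −0.04 ± 0.07 for Rplp2 (edgeR adjusted p = 0.581 and 0.653). Neutrophil and stromal markers were also lower in every knockout than in every wild-type library, and their part in the level of Rplp1 was not tested. Of the windows of Rplp1, 60.0% were shared with 5 other genes, so reads of its copies may enter or leave its count.

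The pair of low paralogs was compared in the same way. Averaged over conditions, the difference of knockout from wild type was −0.90 ± 0.38 for Rpl39l (log2, edgeR adjusted p = 0.0619) and 0.25 ± 0.13 for Rps4l (adjusted p = 0.129). Neither was called by edgeR, while DESeq2 called Rpl39l. In the 4 single comparisons Rpl39l had SEs of 0.72 to 0.80 at 4 to 122 counts a library.

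Rps3a1 and Rack1 are ribosomal proteins whose symbols lie outside the pattern. Their changes with IL4 in wild-type cells were 0.15 ± 0.10 and 0.15 ± 0.09 (edgeR adjusted p = 0.304 and 0.263). A list of 19 other genes with TOP messages held mostly translation factors. Of the 19, 1 rose and 1 fell with IL4 in wild-type cells (14.8% and 15.3% of all genes). Their median change was 0.11, against −0.01 for all genes. The one that fell was Nap1l1, a histone chaperone (−0.47 ± 0.06, edgeR adjusted p = 6.26e-07), and the one that rose was Eif3k, a subunit of initiation factor 3 (0.24 ± 0.07, edgeR adjusted p = 0.0138). Nap1l1 also fell with corticosterone (−0.25 ± 0.06, adjusted p = 0.0056) and dexamethasone (−0.35 ± 0.06, adjusted p = 7.58e-05) in wild-type cells. Of 21 other initiation factors 4 rose with IL4 in each genotype and 0 fell, near the share of all genes that rose (14.8% in wild type and 14.5% in knockout), among them in wild-type cells Eif1a, which acts in start codon scanning (0.34 ± 0.08, edgeR adjusted p = 0.00122).

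Some genes that control the translation of TOP messages changed with treatment. With dexamethasone 5 of 19 rose in wild-type cells (7.66% of all genes rose) and 4 rose in knockout cells (9.1% of all genes). Those that fell with dexamethasone are not counted here. The list also held Mtor, Rptor and Rheb, while the genes named next for dexamethasone all restrain mTOR or initiation. Ddit4, an inhibitor of mTORC1 and a known glucocorticoid target, rose by 4.13 ± 0.43 and 5.06 ± 0.41 (log2; edgeR adjusted p = 6.05e-07 and 9.35e-09), and Deptor, another mTOR inhibitor, by 1.21 ± 0.20 and 1.26 ± 0.17 (adjusted p = 0.00015 and 1.16e-05). Eif4ebp2, which restrains cap-dependent initiation, rose by 0.48 ± 0.09 and 0.36 ± 0.08. With IL4, 3 of the 19 rose and 1 fell in wild-type cells (14.8% and 15.3% of all genes), and 6 rose and 1 fell in knockout cells (14.5% and 12% of all genes). Tsc1, an inhibitor of the same pathway, rose by 0.62 ± 0.08 and 0.40 ± 0.08 (edgeR adjusted p = 2.99e-06 and 0.000424), and Larp1, which binds TOP messages, by 0.19 ± 0.07 and 0.29 ± 0.06.

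Few factors of ribosome maturation and rescue were called. Nmd3, the export adaptor of the large subunit, was the 1 of 17 that rose with each glucocorticoid in each genotype, by 0.38 ± 0.08 (corticosterone) and 0.36 ± 0.08 (dexamethasone) in wild-type cells and 0.30 ± 0.07 with both in knockout cells. With corticosterone 3.48% of all genes rose in wild-type and 6.01% in knockout cells, and with dexamethasone the shares were those given above. It was lower in knockout cells with vehicle (−0.23 ± 0.07, edgeR adjusted p = 0.0249). With IL4, 1 of the 17 rose in wild-type cells (Sbds, which releases Eif6 from the new large subunit, 0.20 ± 0.07) and 5 rose in knockout cells (14.8% and 14.5% of all genes), among them Abce1, a recycling factor (0.39 ± 0.09, adjusted p = 0.00177).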

How the data were processed

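The authors deposited raw counts per gene, here of 27 libraries. Per the labels' protocols, these were made from poly(A) RNA with a directional kit and read as 50 bp pairs. Per the submitters' processing notes, fastp 0.23.2, STAR 2.7.0, featureCounts and edgeR 3.38.4 were used with mm10. The strand setting, the treatment of multi-mapping reads and the annotation are not given in the sources used here.

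One edgeR 4.0.16 quasi-likelihood fit (R 4.3.3, legacy, robust, TMM, minimum count 10) of 8 group means covered 14589 genes. P-values were adjusted by Benjamini-Hochberg over all of them, with an adjusted p under 0.05 as the threshold for a call. Fold changes are fitted values with their SE, and CPM uses TMM-scaled library sizes. The test was checked on simulated counts drawn independently for each gene and library. That check does not cover deviations shared by same-numbered libraries or by members. DESeq2 1.42.0 and the other alternatives are in the closing section. Annotation was GENCODE vM21, which held 29815 of 29872 identifiers. Members named were those called, the 4 highest and lowest per kb, the 3 widest and narrowest over groups, those at the limit of the rule and a list of 12 genes and the paralogs. Members named from the fit with the library number as a block were chosen after their values were seen. Some genes that these rules would name are not reported here. The members and lists were chosen with earlier results of these data known.

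Same-numbered libraries were taken as paired where every correlation of their deviations from the group means exceeded 0.1. This held in wild type for IL4 (0.42 to 0.78), corticosterone (0.44 to 0.75) and dexamethasone (0.39 to 0.72) and in knockout for corticosterone (0.14 to 0.36).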

Additional observations from a re-analysis of the deposited data

Results flagged for a closer look

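In the 3 groups of 4 libraries, 72 sets of values (22 named members, their share of counts and their median deviation) were tested for a single outlying library by Dixon's ratio at its 95% critical value, which chance passes in about 1 of 20 sets. It was passed in 8 sets (11.1%), which share libraries and are not independent. Knockout library 2 was the high one in 7 of them. With vehicle it held 2.13% of its counts in the members (1.71% to 1.76% in the other 3), with Rpl8 at 723 CPM (549 to 562) and Rps6 at 145 CPM (114 to 118). With corticosterone it held Rpsa at 439 CPM (365 to 375) and Rps19 at 236 CPM (188 to 195), and with dexamethasone Rplp0 at 819 CPM (730 to 745) and Rps19 at 216 CPM (191 to 195). The other set was Rps4l with vehicle, at 13.4 CPM in knockout library 1 and 8.34 to 8.85 CPM in the other 3.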

How the results depend on the processing

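RLE scaling, TMM factors computed without these genes, a minimum count of 50 and edgeR's newer dispersion fit kept the number of members called in all 13 comparisons. Without a filter on low counts, 0 members were called with IL4 in wild-type cells and 0 in knockout against wild type with IL4. DESeq2 called 1 with corticosterone in knockout cells, and 4 in the genotype contrast averaged over conditions. The main edgeR fit called 12.1% and 40.9% of all genes in these, which are not DESeq2's own shares. With a replicate block the counts were 24 with IL4 and 1 with dexamethasone in wild type, 2 with IL4 (35.8% of all genes), 3 with corticosterone and 6 with dexamethasone (27.8%) in knockout cells, and 2 (vehicle, 21.3%), 1 (corticosterone, 16.8%) and 2 (dexamethasone, 20.3%) in knockout against wild type. Averaged over conditions, the block gave 3 (39.8% of all genes): Rplp1, Rpl39l (−1.11 ± 0.18, edgeR adjusted p = 2.66e-05) and Rps4l (0.28 ± 0.06, adjusted p = 0.00031). By the rule above, the numbers did not pair in knockout cells for IL4 (0.096 to 0.36) or dexamethasone (−0.08 to 0.42). They also did not pair between genotypes (−0.28 to 0.08). For IL4 the lowest correlation was just under the limit of 0.1. The block left the counts for corticosterone in wild type, knockout against wild type with IL4 and the 3 interactions as they were. In fits of the compared groups alone, 9 were called with IL4 in wild type, and 0, 1 and 1 in knockout against wild type with IL4, corticosterone and dexamethasone. For these comparisons the main fit called 30.1%, 12.4%, 14.4% and 17.2% of all genes. These are not the shares of the fits of the compared groups alone. Leaving out 1 library gave 0 to 1 calls with IL4 in wild type, 0 to 7 with IL4 in knockout, 0 to 1 with corticosterone in knockout and 0 to 13 in knockout against wild type with IL4, where 13 members were lower without knockout IL4 library 2 (13.2% of all genes called). In the genotype contrast averaged over conditions it gave 1 to 7, with 7 lower without knockout vehicle library 2 or knockout IL4 library 2. Without 4 libraries high in Arg1, chosen after seeing the data, 7 were called with IL4 in wild type and 2 in knockout. The main fit called 30.1% and 26.5% of all genes in these comparisons, which are not the shares of the fit without those libraries. Outside the IL4 groups Arg1 was highest in knockout vehicle libraries 2 and 3, wild-type dexamethasone library 1 and knockout dexamethasone library 2. The share of counts without mitochondrial genes could not be run, since the table used here holds 0 of them. Rpl39l had the lowest depth, with 4 to 122 counts a library.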
